A study of Mus musculus with 4 samples.

Results

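The genes described here are 43 members of the TGF-β, BMP and activin pathway, taken from a fixed list of gene names out of the 20140 genes that could be named on the arrays. They comprise 12 ligands, 12 receptors and co-receptors, 2 latent TGF-β binding proteins, 6 secreted antagonists, 8 SMADs and 3 Id target genes. Every member had at least 1 probe matched through its RefSeq accession, 54 probes in all, and 11 members had several. Expression was measured on 4 one-colour Agilent mouse arrays, 1 each for AB1-HA cells with vehicle, AB1-HA cells with IFN-γ, LLC cells with vehicle and LLC cells with IFN-γ, all after 24 h. AB1-HA is a mesothelioma line of strain BALB/c and LLC, also titled 3LL, a lung carcinoma line of strain C57BL6. Each line stands for its tumour type and its strain at once, so tumour type, strain and line cannot be told apart. Each group was 1 array with no replicate, so the response of a line to IFN-γ and the difference between the lines have no test. The number of arrays limits the precision of every value. The IFN-γ dose and the number of cultures behind each RNA are not given in the sources used here.

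TGF-β family ligands are secreted dimers that bring together type II and type I receptor kinases. TGF-βs and activins act mainly through SMAD2 and SMAD3, and BMPs through SMAD1, SMAD5 and SMAD9; each of these pairs with SMAD4 to enter the nucleus, while SMAD6 and SMAD7 inhibit the relay. Latent TGF-β binding proteins tether inactive TGF-β in the matrix, and secreted antagonists such as follistatin, noggin and gremlin bind ligands before they reach a receptor. In mesothelium and lung tumours the pathway is known for its part in matrix production, in epithelial-mesenchymal transition and in restraining immune cells.

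The arrays were similar in overall quality. Between 57.5% and 58.2% of the 39429 gene probes were well above background on each array, and the 75th percentile of the signal lay between 1380 and 1598 intensity units. All 6 genes fixed to check the IFN-γ label were higher on the IFN-γ array of both lines, by 2.49 to 11.30 on the log2 scale. The labelled cell types were only partly borne by their markers: on all 4 arrays the mesothelial genes Wt1, Upk3b, Calb2 and Lrrn4 and the lung epithelial genes Epcam, Cdh1, Nkx2-1, Sftpc, Sftpb and Cldn18 were not well above background. Of 10 mesothelial markers 4 to 6 were well above background on an array, and they did not point to one line. With vehicle the mesothelial antigen Msln was at 50299 intensity units in AB1-HA and at 154 in LLC. Pdpn (8991 and not well above background) and Krt19 (3249 and 1167) were also higher in AB1-HA. In contrast, Krt18 (239 and 134098), Krt8 (47.5 and 9469) and Bnc1 (not well above background and 1997) were higher in LLC. The summed mesothelial signal with vehicle was 62835 in AB1-HA, most of it from Msln, and 146899 in LLC, most of it from Krt18. Such sums add different probes before scaling and mostly follow 1 gene, so they do not rank the lines. The other marker lists gave 2 to 3 of 9 lung epithelial, 8 to 10 of 10 mesenchymal, 4 of 7 leukocyte and 2 to 3 of 6 endothelial genes. The lung epithelial gene Foxa2 read 8151 and 4556 in LLC and was not well above background in AB1-HA, at least 852-fold higher in LLC with vehicle. With vehicle, Scgb1a1 (19.4 in AB1-HA and 24.9 in LLC) and Krt7 (9.44 and not well above background) were dim. Of the leukocyte genes, Cd3e, Itgam, Csf1r and Nkg7 were well above background on all 4 arrays, and Ptprc and Adgre1 were not on any. The summed leukocyte signal lay between 4201 and 5107, most of it from Itgam, while Csf1r went from 183 to 537 in LLC under IFN-γ, 3.35-fold higher. What these marker levels contribute to the differences described here was not tested.

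Signals below are the processed intensities of a gene's brightest probe before scaling, and are compared only within a gene. Differences are on the log2 scale after each signal was divided by the 75th percentile of its array. The value after ± is the error that the scanner software assigns to the 2 spots, which covers neither culture nor labelling. A member was counted as higher or lower at 2-fold, which marks size and is no measure of significance. Of the 43 members, 34 were well above background on all 4 arrays and 7 on some of them, while Bmp7 and the receptor gene Bmpr1b were not on any. Where 1 array of a pair was too dim in this sense, the difference is a bound and is written "at least".

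**Figure D1:**
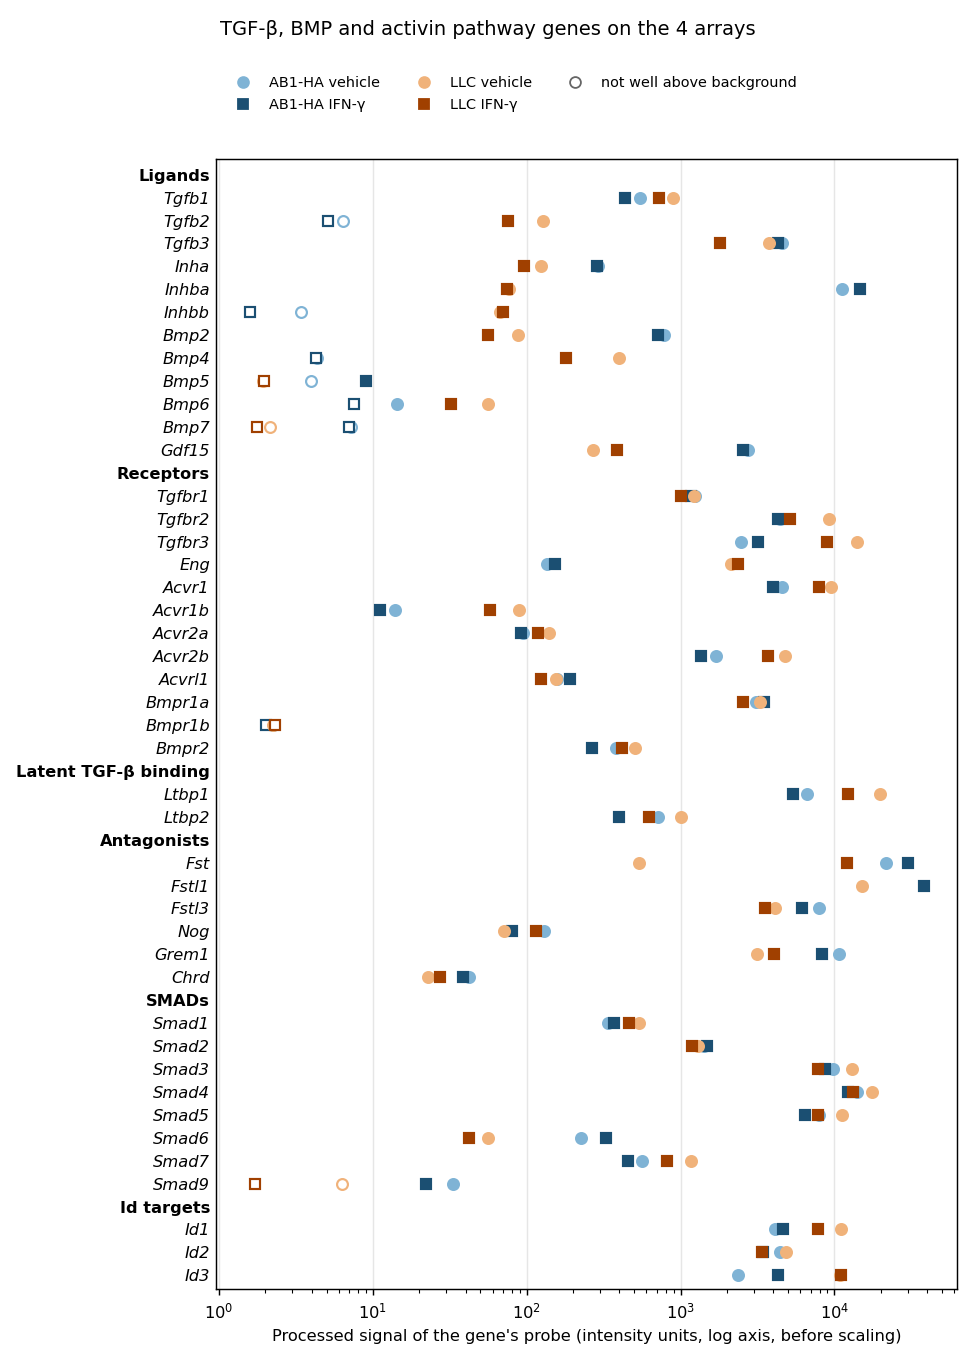
Processed signal of each of the 43 members on the 4 arrays (log axis, intensity units before scaling; circles, vehicle; squares, IFN-γ; blue, AB1-HA; orange and brown, LLC; open symbols, not well above background), 1 array per group. Inhba sits at 11167 and 14771 in AB1-HA and at 76.8 and 74.8 in LLC, and the Fst signal of LLC moves from 536 to 12011 under IFN-γ.

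The first question was how the pathway differed between the resting lines. With vehicle, LLC exceeded AB1-HA by at least 2-fold for 11 of the 39 members with a value, against 16.4% of all genes, and fell short of it by as much for 11, against 16%. In both directions together this was 56.4% of the members with a value and 32.5% of all 13849 genes with one, a comparison of shares without a test. AB1-HA had the higher signals for the activin subunit Inhba, Bmp2, Gdf15 and all 5 antagonists with a value. LLC had the higher signals for Bmp4, Tgfb2, the activin subunit Inhbb and the co-receptors Eng and Tgfbr3. The antagonist median was −1.14 and stayed negative under every alternative tried (−1.14 to −1.04), the receptor median was 0.84 (0.34 to 0.94), and the median over all genes was −0.05.

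Among the ligands, Inhba differed most. It encodes the βA subunit, which forms activin A, and its signal was 11167 with vehicle and 14771 with IFN-γ in AB1-HA, against 76.8 and 74.8 in LLC. Both AB1-HA arrays were far above both LLC arrays, a difference with vehicle of −7.39 ± 0.21 (LLC minus AB1-HA), or 168-fold, the 65th largest toward AB1-HA of all genes. Inhbb, which encodes the βB subunit of activin B, ran the other way. It was not well above background in AB1-HA (3.39 and 1.59) and stood at 67.1 and 70.5 in LLC, at least 7.02-fold higher there with vehicle, but by 0.45 (log2) under normexp. Inha, the α subunit that turns either β subunit into an inhibin, was at 291 and 288 in AB1-HA and at 124 and 96.0 in LLC, 2.71-fold lower in LLC with vehicle and within 2-fold under normexp (−0.94).

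The promoters of both activin β genes are shown because these subunits differed between the lines in opposite directions. Each runs from 250 bases before to 50 after the start in the RefSeq sequence of build GRCm38.p6, at chr13:16011601-16011900 (plus strand) for Inhba and at chr1:119422199-119422498 (minus strand) for Inhbb. Both are written 5′ to 3′ on the strand of the gene, and capitals mark a match to the core of the interferon-stimulated response element (ISRE), which begins at base −198 of Inhbb. Inhba held none of the motifs searched.
Inhba: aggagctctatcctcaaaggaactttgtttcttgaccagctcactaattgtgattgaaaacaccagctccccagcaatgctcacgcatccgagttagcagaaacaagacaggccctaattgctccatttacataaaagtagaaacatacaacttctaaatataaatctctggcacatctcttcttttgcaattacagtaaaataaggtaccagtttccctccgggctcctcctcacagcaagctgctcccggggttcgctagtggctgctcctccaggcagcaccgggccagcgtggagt
Inhbb: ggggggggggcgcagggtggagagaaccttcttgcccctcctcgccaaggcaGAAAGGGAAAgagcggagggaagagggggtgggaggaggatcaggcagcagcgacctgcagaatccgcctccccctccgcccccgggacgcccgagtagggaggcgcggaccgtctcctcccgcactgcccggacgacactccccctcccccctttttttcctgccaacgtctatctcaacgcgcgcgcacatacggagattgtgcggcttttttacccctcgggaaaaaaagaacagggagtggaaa

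BMP ligands split between the lines in a similar way. Bmp2, an inducer of bone and cartilage, read 777 and 716 in AB1-HA and 87.5 and 56.4 in LLC, −3.36 ± 0.21 with vehicle. Bmp4, its close relative, was not well above background in AB1-HA (4.35 and 4.28) and read 399 and 180 in LLC, at least 41.8-fold higher there with vehicle. A second Bmp4 probe was not well above background on any array. Bmp6 read 14.4 in AB1-HA with vehicle and 55.9 and 32.4 in LLC (1.75 ± 0.45 with vehicle, 0.12 under normexp). Bmp5 was well above background on the AB1-HA IFN-γ array alone, at 8.98, just over the lowest signal so marked there (7.53). Bmp2 thus read higher in AB1-HA and Bmp4 in LLC. The size for Bmp6 depended on the background correction, and that for Bmp4 with vehicle was as low as 1.64 (log2) over the alternatives tried.

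The TGF-β ligands were less far apart, apart from Tgfb2. Tgfb2 read 6.37 and 5.11 in AB1-HA, not well above background, and 127 and 75.4 in LLC, at least 13.3-fold higher there with vehicle, and just within 2-fold under normexp (0.96). Tgfb1, the main TGF-β of immune regulation, was printed as 10 spots, whose medians were 555 and 435 in AB1-HA and 912 and 718 in LLC, with SDs between spots of 19.7 to 47.1. The spots of the lines did not overlap, yet the scaled difference with vehicle was 0.50 ± 0.20, within 2-fold. Spots of 1 array share 1 hybridisation, so their SDs cover no spread between cultures. Gdf15, a stress-induced and distant member of the family, read 2753 and 2546 in AB1-HA and 270 and 387 in LLC, 11.8-fold lower in LLC with vehicle.

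Among the receptors, none of 11 was at least 2-fold lower in LLC, against 16% of all genes, and 4 were higher with vehicle, against 16.4%. The co-receptor endoglin, Eng, which presents BMP9 and TGF-β in endothelium, read 135 and 153 in AB1-HA and 2120 and 2360 in LLC, 3.76 ± 0.20 with vehicle. Tgfbr3, the co-receptor betaglycan, read 2488 and 3190 against 13955 and 8931, 2.28 ± 0.20. The activin receptors Acvr1b (type I; 14.0 and 11.1 against 88.7 and 57.6) and Acvr2b (type II; 1698 and 1366 against 4776 and 3687) were 5.47-fold and 2.43-fold higher in LLC, but the dim Acvr1b was at 0.01 (log2) under normexp. In all 4 of these genes both LLC arrays lay above both AB1-HA arrays.

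The signalling receptors for TGF-β itself differed by less than 2-fold. The type I receptor Tgfbr1 read 1249 and 1163 in AB1-HA and 1220 and 1001 in LLC, −0.24 ± 0.20 with vehicle. The type II receptor Tgfbr2 read 4439 and 4287 against 9215 and 5148, 0.84 ± 0.20, but its dimmer probe gave −0.42, so its direction depends on the probe. Acvr1 (0.85, or 1.01 by its dimmer probe), Acvr2a (0.35), Acvrl1 (−0.23), Bmpr1a (−0.12) and Bmpr2 (0.19) lay within 2-fold or at its edge. Of the latency genes, Ltbp1, which anchors latent TGF-β, was 2.59-fold higher in LLC (6621 and 5365 against 19855 and 12248), and Ltbp2, a matrix protein of the family that does not bind latent TGF-β, was at 0.30 ± 0.20.

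All 5 antagonists with a value were lower in LLC with vehicle, by at least 2-fold each. Follistatin, Fst, which binds activins nearly irreversibly, read 21504 in AB1-HA and 536 in LLC, 46.4-fold lower. Grem1, which binds BMP2 and BMP4, read 10732 and 3115, 3.99-fold lower. Fstl3, a relative of follistatin (7882 and 4140 with vehicle), the BMP antagonist noggin, Nog (130 and 70.9), and the BMP antagonist chordin, Chrd (42.4 and 22.8), lay closer to the threshold at −1.14 ± 0.20, −1.08 ± 0.21 and −1.10 ± 0.26. All 5 read lower on the LLC vehicle array than on either AB1-HA array. Nog and Chrd came within 2-fold under cyclic loess (−0.85 and −0.76) and normexp (−0.47 and −0.43). For Fstl1, the spots carried an outlier mark on the AB1-HA vehicle and LLC IFN-γ arrays, so no comparison had a value. With those spots kept its difference with vehicle was −0.79.

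Of the 8 SMADs, 6 lay within 2-fold between the lines, and Smad6 and Smad9 of the BMP branch did not. Smad1 (0.46), Smad2 (−0.34), Smad3 (0.22), Smad4 (0.11) and Smad5 (0.28) lay within 2-fold, each with an error of 0.20, and the sign for Smad4 turned with the mean of its probes (−0.03). Smad6, the inhibitory SMAD of BMP signalling, read 225 and 329 in AB1-HA and 55.6 and 41.9 in LLC, −2.23 ± 0.21 with vehicle. Smad9, a BMP-regulated SMAD, read 33.2 and 22.1 in AB1-HA and was not well above background in LLC, at least 5.49-fold lower there and within 2-fold under normexp (−0.93). Smad7, the inhibitor of TGF-β signalling, read 560 and 455 against 1169 and 813, 0.85 ± 0.20, within 2-fold. Among the Id genes, which BMP signals induce and which block differentiation factors, Id1 (4083 and 10976 with vehicle) and Id3 (2377 and 10892) were 2.32-fold and 3.96-fold higher in LLC, while Id2 was level (−0.07 ± 0.20).

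**Figure D2:**
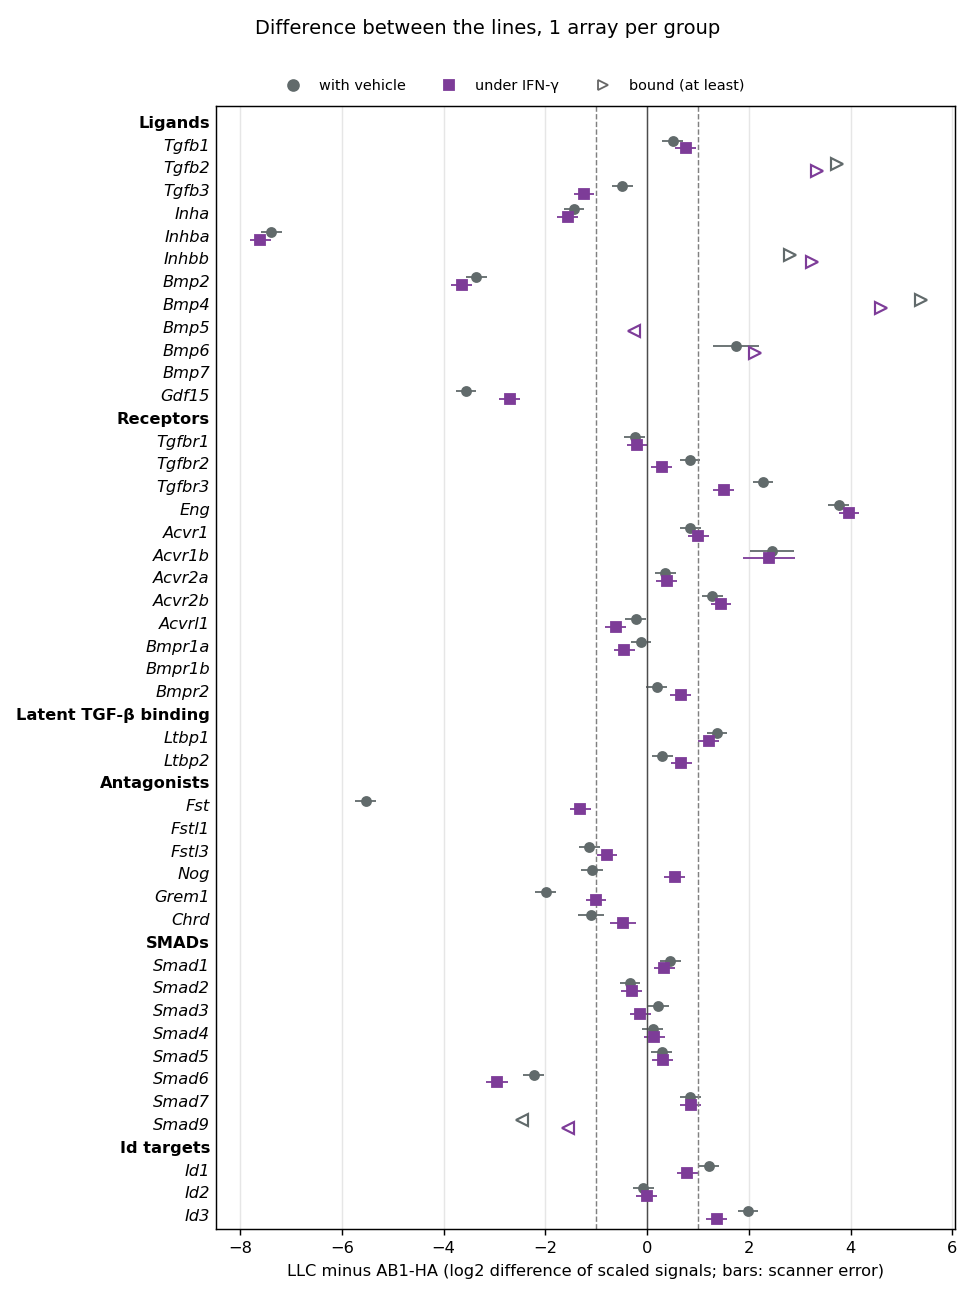
Log2 difference LLC minus AB1-HA of each member with vehicle (grey circles) and under IFN-γ (purple squares), with the scanner error as bars, open arrows for bounds and dashed lines at 2-fold; 1 array per group. Inhba, Bmp2, Gdf15 and Fst lie far to the left with vehicle, Bmp4, Eng and Tgfb2 to the right, and Fst moves from −5.54 to −1.31 under IFN-γ.

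Smad6 was the member whose promoter held the SMAD palindrome, and Grem1 is shown as an example of the 9 members with the BMP element GGCGCC, another antagonist, Chrd, among them. They are printed from the same RefSeq table, Smad6 at chr9:64022010-64022309 and Grem1 at chr2:113758599-113758898, both on the minus strand of GRCm38.p6. Capitals mark only the palindrome and the element, and 2 matches of Grem1 to the SMAD box CAGAC stay in lower case.
Smad6: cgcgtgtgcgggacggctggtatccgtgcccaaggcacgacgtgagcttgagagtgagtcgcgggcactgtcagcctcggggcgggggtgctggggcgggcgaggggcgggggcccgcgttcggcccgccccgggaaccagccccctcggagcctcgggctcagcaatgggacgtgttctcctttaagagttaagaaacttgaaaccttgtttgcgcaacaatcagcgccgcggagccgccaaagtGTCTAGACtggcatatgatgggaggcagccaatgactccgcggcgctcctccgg
Grem1: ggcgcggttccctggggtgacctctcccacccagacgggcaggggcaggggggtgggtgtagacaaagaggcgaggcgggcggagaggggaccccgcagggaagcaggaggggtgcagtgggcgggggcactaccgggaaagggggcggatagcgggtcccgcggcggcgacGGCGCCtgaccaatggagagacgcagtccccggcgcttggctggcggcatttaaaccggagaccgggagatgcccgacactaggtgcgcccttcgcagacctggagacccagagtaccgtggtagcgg
The palindrome GTCTAGAC begins at base −4 of Smad6 and the element at base −78 of Grem1. Over the promoters that the table held for 32 of the members, 39 in all, none had the GAS motif TTCNNNGAA on either strand, against 8.3% of 32851 promoters of the same length. The ISRE core was in 1 (3.44% of all), the SMAD palindrome in 1 (0.213%), the SMAD box CAGAC in 21 (49.6%) and GGCGCC in 10 (11.9%), counted on both strands, and no capitalised match overlaps another. These counts describe letters in a short window and no binding. They leave out the members without a promoter sequence, Fst, Nog, Bmp2 and Id1 among them, which were not searched for any motif.

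In AB1-HA, no member was measured past 2-fold under IFN-γ, a count close to the share of all genes. None of the 37 members with a value was at least 2-fold higher, against 2.99% of all genes, and none at least 2-fold lower, against 1.17% (4.15% in either direction). The members furthest from 0 were Id3 (0.82 ± 0.20, from 2377 to 4303) and Ltbp2 (−0.87 ± 0.20, from 709 to 397), along with Bmp6, which dropped out of the range well above background (at least 1.97-fold lower, so that it cannot be placed within 2-fold). The Bmp6 signals were dim (14.4 with vehicle and 7.49 under IFN-γ), and the bound does not allow for their scanner error. Over the alternatives tried, its difference was as small as −0.32. Bmp5 likewise has only a bound (at least 1.06-fold higher). It passed 2-fold in the authors' deposited table and without a background filter. Both take its vehicle signal, not well above background, as it stands (3.96, against 8.98 under IFN-γ). Nog was at −0.73 ± 0.21, Bmpr2 at −0.56 ± 0.20, Smad6 at 0.51 ± 0.20, Fst at 0.45 ± 0.20 and Inhba at 0.36 ± 0.20. The median over members was −0.16 and that over all genes −0.08.

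In LLC, 1 of 38 members was at least 2-fold higher under IFN-γ, against 3.68% of all genes, and none at least 2-fold lower, against 1.46% (5.14% in either direction). That member was Fst, which went from 536 to 12011, a difference of 4.68 ± 0.20 or 25.6-fold, the 57th largest gain of 13426 genes. In AB1-HA it went from 21504 to 30277, so that the LLC array with IFN-γ came closer to the AB1-HA level without reaching it. Over all alternatives tried, the Fst difference in LLC ranged from 4.43 to 4.71. It rests on 1 probe with 1 spot per array.

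The remaining LLC members lay within 2-fold. Nog (0.89 ± 0.21, from 70.9 to 115), Gdf15 (0.71 ± 0.20), Grem1 (0.58 ± 0.20, from 3115 to 4070) and Chrd (0.45 ± 0.29, but −0.12 under normexp) were on the higher side. Bmp4 (−0.96 ± 0.20), Tgfb3 (−0.87 ± 0.20), Tgfbr2 (−0.65 ± 0.20, −0.15 by its dimmer probe) and Tgfb2 (−0.56 ± 0.21) were on the lower side. Tgfb3, a TGF-β isoform of matrix and palate, was again printed as 10 spots. In LLC their medians were 3795 and 1814, with ranges of 3519 to 3878 and of 1671 to 1913 that did not overlap. In AB1-HA the medians were 4556 and 4342, and the ranges did overlap. These are signals before scaling from spots that share 1 hybridisation per array, so their ranges cover no spread between cultures. Scaling bears on these calls. With each array's median in place of the 75th percentile, which shifted all LLC differences by −0.14, Bmp4 and Tgfb3 passed 2-fold, so that 1 member was higher and 2 lower. Under quantile and cyclic loess scaling Bmp4 alone did, giving 1 higher and 1 lower. By group, the medians were 0.58 for antagonists, −0.31 for ligands, −0.14 for receptors, −0.22 for SMADs and −0.29 for Id genes, with −0.06 over all genes. The signs of these group medians held under the other scalings, and the receptor median turned to 0.01 under normexp.

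**Figure D3:**
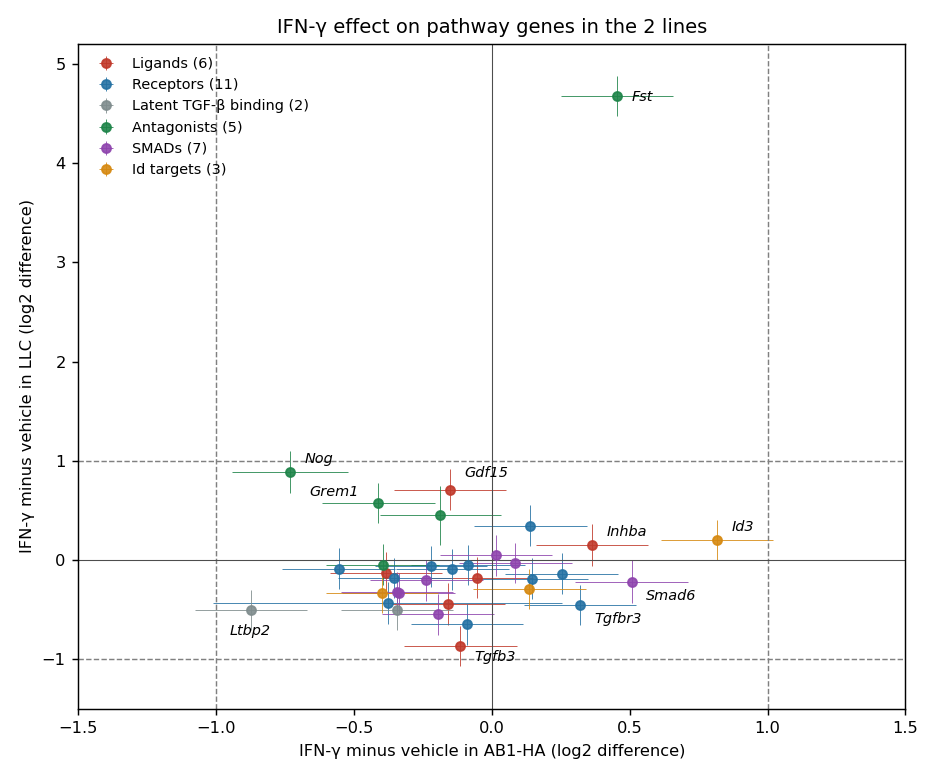
IFN-γ minus vehicle (log2 difference) in AB1-HA on the horizontal and in LLC on the vertical axis for the 34 members well above background on all 4 arrays, coloured by role, with scanner errors as bars and dashed lines at 2-fold; 1 array per group. Fst alone lies past 2-fold, at 4.68 in LLC and 0.45 in AB1-HA.

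The effects of IFN-γ in the lines were then set against each other over the 34 members well above background on all 4 arrays. The 5 antagonists with a value stood toward LLC. In all, 2 members had an effect at least 2-fold larger there, against 2.54% of 12002 genes, and none at least 2-fold smaller, against 1.69% (4.23% in either direction). These effects share the vehicle arrays with the resting comparison, in which the same antagonists were low in LLC, so the 2 sets of values are not independent. Fst had a difference of effects of 4.22 ± 0.29, the 4th largest of all genes, and Nog one of 1.62 ± 0.30. Grem1 (0.99 ± 0.29) was just short of 2-fold, followed by Gdf15 (0.86 ± 0.29), Chrd (0.64 ± 0.37) and Fstl3 (0.35 ± 0.29), so that all 5 antagonists lay above 0. They did so under the other scalings as well, with a median of 0.99 (0.85 to 0.93 over the scalings, 0.64 under normexp), against 0.03 over all members and over all genes. Under normexp the Nog difference was 0.64. Fstl1 had no value here. With its outlier-marked spots kept, its effects were 0.71 in AB1-HA and 0.83 in LLC, a difference of 0.12. The receptors (0.03) and SMADs (0.01) had medians near 0 whose signs turned under other scalings.

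Under IFN-γ, most of the difference between the lines was still in place. LLC was at least 2-fold above AB1-HA for 11 of 40 members, against 15.4% of all genes, and 9 at least 2-fold lower, against 13.3% (28.6% in either direction). This comparison and the resting one rest on different arrays, and 10 of the 11 higher and 8 of the 11 lower members with vehicle were past 2-fold in the same direction. The same overlap was not counted over all genes, so these counts cannot be read as particular to the pathway. Inhba stayed 195-fold lower in LLC and Eng 15.7-fold higher. The exceptions were mostly antagonists: Fstl3 (−0.79), Chrd (−0.47) and Nog (0.54) no longer lay 2-fold lower, and Fst was 2.49-fold lower in place of 46.4-fold. Id1 (0.79) also fell within 2-fold, whereas Acvr1 (2.01-fold higher) and Tgfb3 (2.36-fold lower) had passed it, Acvr1 by so little that it was at 0.87 with the array median and 0.96 with the mean of its probes. Members that rest on dim signals depended on the background correction. With normexp, 7 of the 11 higher members remained past 2-fold with vehicle and 7 under IFN-γ, without Acvr1b, Bmp6, Inhbb and Tgfb2 in either.

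Further genes of the pathway, 86 from a fixed list, were compared between the lines in the same way. Of the 63 that had a value in the vehicle comparison, 15 passed 2-fold toward LLC, a larger share than the 16.4% of all genes. Toward AB1-HA 9 did, a slightly smaller share than the 16% of all genes. These shares were not tested. Ccn2, a matrix-associated growth regulator and TGF-β target, read 42717 and 49782 in AB1-HA and 126 and 72.3 in LLC, 393-fold lower with vehicle. Pmepa1, a TGF-β target that restrains SMAD activation (at least 205-fold), the Notch and BMP target Hey1 (at least 68.3-fold), thrombospondin 1, Thbs1, which can release active TGF-β (29.5-fold), and the BMP antagonist Nbl1 (13.3-fold) followed. In the other direction, Bmp1, a protease of procollagen despite its name, was 8.03-fold higher in LLC, the collagen gene Col4a1 6.92-fold, Lrrc32, which holds latent TGF-β on cell surfaces, 4.92-fold, and Gdf1 and Lefty1 4.50-fold and 4.49-fold. Genes known as TGF-β targets lay on both sides. The further antagonists only partly followed those among the members. Nbl1 was lower in LLC as they were, whereas Twsg1 (0.39), Dand5 (0.23) and Bmper (at least 2.90-fold) read higher there. The effects of IFN-γ differed by 0.72 ± 0.29 toward LLC for Nbl1, and by 0.04 for Twsg1 and 0.01 for Dand5.

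Under IFN-γ few of these further genes passed 2-fold, as was so of all genes. In AB1-HA, 1 of 62 was at least 2-fold higher (2.99% of all genes), the integrin gene Itgb8, whose product can activate latent TGF-β (at least 2.58-fold; 21.9 under IFN-γ and not well above background with vehicle), and none was lower (1.17%). In LLC, none of 59 was higher (3.68%) and 2 were lower (1.46%), Lrrc32 (−1.02 ± 0.23, from 108 to 46.6) and the TGF-β induced matrix gene Tgfbi (−1.20 ± 0.20, from 1542 to 588). Thbs1 moved in opposite directions, 0.88 ± 0.20 in AB1-HA and −0.74 ± 0.20 in LLC, and was the 1 gene of the list with effects more than 2-fold apart (−1.63 ± 0.29).

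**Figure D4:**
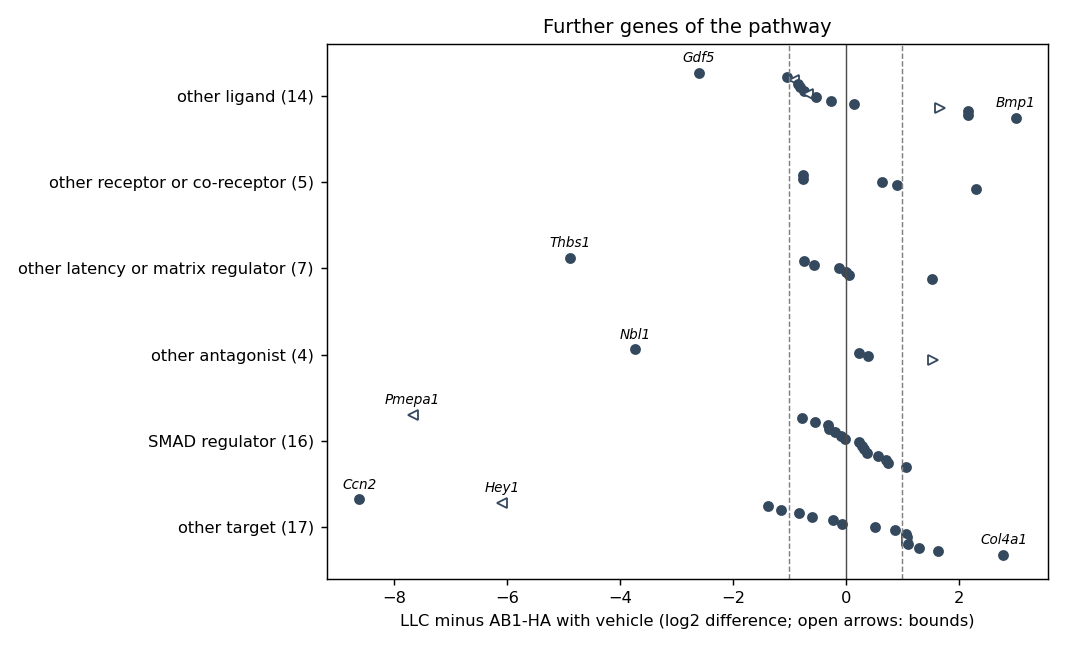
Log2 difference LLC minus AB1-HA with vehicle for the 63 further pathway genes with a value, in 6 groups (filled circles, measured; open arrows, bounds; dashed lines at 2-fold), 1 array per group. Ccn2, Pmepa1, Hey1 and Thbs1 lie furthest toward AB1-HA, and Bmp1 and Col4a1 furthest toward LLC.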

How the data were processed

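Total RNA was labelled with Cy3, per the labels' protocols, and hybridised to 1 array per group. The deposited intensity values are scanner output: Agilent Feature Extraction 10.7.1.1 subtracted background per spot and did not normalize between arrays, per the file headers. The value table of log2 values deposited by the authors correlated at 1.00 with the scaled, probe-centred signals used here. The columns had medians of 0.11 and −0.08 in AB1-HA, and of −0.13 and 0.08 in LLC (vehicle, IFN-γ). Its making is not described in those sources.

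Control spots and 166 to 201 outlier-marked gene spots per array were left out, and spots of a probe were averaged. The 75th percentile of an array was the reference for its log2 values. Accessions named 26581 of 39429 probes through RefSeq (GRCm38.p6, which served for names and promoters alone because the array design uses a different build), and the brightest probe stood for a gene. A probe was well above background where at least 0.5 of its spots were so marked. Bounds used the higher of a dim probe's signal and the lowest marked signal of that array (7.01 to 8.26), and the difference of effects needed all 4 arrays. The calling code was checked on simulated signals with known folds, which says nothing of the spread between cultures. Chosen after their values were seen were Twsg1, Dand5 and Bmper.

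The members, the lists of further pathway genes (6), of cell type markers (5) and of IFN-γ check genes (1) were chosen with earlier results of these data known. All members were named, along with up to 5 further pathway genes per direction at 2-fold. Alternatives were array median, quantile and cyclic loess scaling, normexp (offset 50, on median spot signals), the value table, all 4 arrays required, no filter, the mean of a gene's probes, and marked spots kept. Python 3.11.15, numpy 2.4.6, pandas 2.3.3, matplotlib 3.10.9, R 4.3.3 and limma 3.58.1 were used.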

Additional observations from a re-analysis of the deposited data

Results flagged for a closer look

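For 4 members the effect of IFN-γ went in opposite directions in the lines by more than the scanner error on each side, 11.8% of the 34 members with a value and 6.6% of 12002 genes. Each line had 1 array per condition, so the difference was not tested. Nog was lower in AB1-HA (−0.73) and higher in LLC (0.89), a difference of effects of 1.62. Grem1 did the same at −0.41 and 0.58, a difference of 0.99. Tgfbr3 was higher in AB1-HA (0.32) and lower in LLC (−0.45), a difference of −0.77, and Smad6 was at 0.51 and −0.22, a difference of −0.73. The LLC effect of Smad6 barely passed its error (−0.218 against 0.216) and was as small as −0.16 over the alternatives tried. The count of 4 rests on that margin. None of these effects reached 2-fold in either line.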

How the results depend on the processing

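Of the 90 recounts of members past 2-fold under the 9 alternatives, 76 stayed within 1.5 times of the count reported. A count of 0 that stayed at 0 was among these. No member past 2-fold changed sign under any alternative. With IFN-γ in LLC, the count of lower members went from 0 to 2 with the array median, to 1 with quantile and 1 with cyclic loess scaling, and to 1 without a background filter. In AB1-HA the count of higher members went from 0 to 1 with the authors' value table and to 1 without a filter, where 1 was also lower. For the lines with vehicle, normexp gave 7 higher and 7 lower members in place of 11 and 11, and requiring all 4 arrays gave 7 higher. Under IFN-γ both gave 7 higher in place of 11. For the difference of effects, normexp left 1 member higher in place of 2, and without a filter 1 was lower in place of 0. Normexp adds an offset of 50 to every spot, and requiring all 4 arrays removes the genes with bounds. Of the recomputed member differences, 1617 moved by no more than the scanner error and 56 by more. Several alternatives could hardly move a measured difference. Requiring all 4 arrays or using no filter leaves it as it is, and the value table holds the same signals. The mean of probes changes nothing for a member with 1 probe. The counts of unchanged results are therefore no measure of stability. Signal over background limits the size of differences that rest on dim probes. With 1 array per group, spread between cultures is unknown.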
